A study of Mus musculus with 7 samples.

Results

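The genes of the epidermal growth factor (EGF) family and its ERBB receptors were described across EMT6 tumors that grew under IgG or under antibody to PD-L1. The family was taken as 10 genes, the ligand genes Egf, Tgfa, Areg, Ereg, Hbegf, Btc and Nrg1 and the receptor genes Egfr, Erbb2 and Erbb3, out of 53465 genes in the table. These 10 genes were selected on their family and on the levels and fold changes measured in these same 7 libraries, so their values are given as a description with no test. RNA-sequencing covered 3 EMT6-P tumors (parental, isotype control antibody), 3 EMT6-PTR tumors (PD-L1 treatment-resistant, anti-PD-L1) and 1 EMT6-PTR metastasis, a single library listed as met with no site and with breast tumor tissue as its source. EMT6 is a mouse breast carcinoma cell line of Balb/c origin. All groups carried the same cells, 500000 of them placed in the mammary fat pad of female Balb/c mice 6 to 8 weeks old, and all were treated from day 1 with 250 μg of antibody per mouse every 3 days until the institutional endpoint. The EMT6-PTR samples come from mice whose tumors grew back under one antibody (clone 80), and each library is whole tumor tissue, which also holds the host's stromal and immune cells. The labels do not say that the replicates are separate animals, and the study's legend for these data describes replicates as technical where nothing else is specified, so SDs, SEs and p-values measure only the spread between these samples.

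EGF family ligands are made as precursors anchored in the cell membrane and are released by metalloproteases such as ADAM17, and the freed ligand binds a receptor tyrosine kinase on the same or a neighbouring cell. Egf, Tgfa and Areg bind Egfr, Hbegf, Btc and Ereg bind Egfr and Erbb4, and Nrg1 binds Erbb3 and Erbb4, while Erbb2 has no known ligand and serves as a partner for the other receptors. The receptors signal through RAS and ERK and through PI3 kinase, and in the mammary gland Areg is the ligand needed for the outgrowth of ducts at puberty.

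Total estimated counts ranged from 20430110 to 25213472 per library, and 15645 genes passed the filter on low counts in the 6 tumors. EMT6-PTR replicate 3 stood apart from the other tumors, with correlations across genes of 0.872 to 0.912 with each of them. Correlations were 0.976 or more among the EMT6-P tumors, and 0.931 between EMT6-PTR replicates 1 and 2. The common dispersion, edgeR's measure of the spread between replicates, was 0.246 in EMT6-PTR and 0.0266 in EMT6-P. Krt8, from the marker list for luminal epithelium and carcinoma, was at 502 CPM or more in every library. Epcam and Cdh1 of the same list were low in the tumors, at no more than 10.5 and 9.64 CPM. Which cells held this RNA was not tested. The metastasis held lung markers at a summed 8569 CPM, against at most 25.9 CPM in any tumor.

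Areg and Ereg sit next to each other on mouse chromosome 5 (GRCm38), Ereg at chr5:91074622-91093646 and Areg at chr5:91139599-91148432, both on the plus strand, and Btc lies further along at chr5:91357261-91402994 on the minus strand. Tgfa is at chr6:86195223-86275719 (plus strand), Egf at chr3:129677565-129755316 (minus), Nrg1 at chr8:31814551-32884029 (minus), Erbb3 at chr10:128567523-128589652 (minus), Egfr at chr11:16752203-16918158 (plus) and Erbb2 at chr11:98412470-98437716 (plus). Of the 10 genes, 6 overlap an annotated gene on the opposite strand (Egf, Tgfa, Ereg, Nrg1, Egfr and Erbb2), and since the sources used here do not state whether reads were counted by strand, their values may include reads of that partner. The 250 bases upstream of the start site are shown for 3 ligand genes, Areg and Tgfa, which were low together in EMT6-PTR replicate 3, and Egf, which was high there. They are RefSeq sequences on GRCm38.p6, printed 5′ to 3′ on the gene's strand, with matches to TGACGTCA (the cyclic AMP response element, CRE), TATAAA (the TATA box) and GGGCGG (the GC box) on either strand in capitals.
Areg (chr5:91139349-91139598, plus strand): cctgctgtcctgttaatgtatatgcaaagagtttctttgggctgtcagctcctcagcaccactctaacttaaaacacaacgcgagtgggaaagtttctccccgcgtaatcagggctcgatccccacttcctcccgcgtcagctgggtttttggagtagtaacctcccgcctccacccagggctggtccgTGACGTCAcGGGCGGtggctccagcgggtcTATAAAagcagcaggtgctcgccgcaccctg
Tgfa (chr6:86194972-86195221, plus strand): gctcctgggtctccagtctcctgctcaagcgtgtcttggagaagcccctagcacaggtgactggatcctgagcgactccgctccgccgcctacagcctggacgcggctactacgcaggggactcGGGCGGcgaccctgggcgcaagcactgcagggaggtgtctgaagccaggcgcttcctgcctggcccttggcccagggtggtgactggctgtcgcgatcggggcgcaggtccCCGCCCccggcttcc
Egf (chr3:129755323-129755572, minus strand): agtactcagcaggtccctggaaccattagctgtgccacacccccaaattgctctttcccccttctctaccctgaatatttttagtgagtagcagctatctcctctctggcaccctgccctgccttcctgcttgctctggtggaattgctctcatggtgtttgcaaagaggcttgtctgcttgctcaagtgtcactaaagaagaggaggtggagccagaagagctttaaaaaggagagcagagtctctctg
The Areg window held a CRE at bases -61 to -54, a GC box at -52 to -47 and a TATA box at -31 to -26, counted back from the start site, with no overlap between them. The Tgfa window held 2 GC boxes and the Egf window none of these motifs. Of all 32851 upstream windows of the same length in the RefSeq table, 1.55% held the CRE, 12.4% the TATA box, 32.7% the GC box and 6.75% the AP-1 motif TGANTCA, which none of these 3 windows held. Windows were kept for 6 of the 10 genes (Egf, Tgfa, Areg, Btc, Egfr and Erbb2), and a motif match describes letters only.

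Across the EMT6-P tumors Areg and Hbegf were the leading ligands and Egf the lowest. Levels between genes are compared as CPM per kb of exon (CPM, counts scaled to library size with upper-quartile factors, divided by exon length). In EMT6-P, Areg stood at 40.7 ± 12.5 CPM per kb (SD, n = 3), followed by Hbegf at 25.7 ± 1.38, Tgfa at 4.0 ± 0.758 and Ereg at 0.259 ± 0.0234. Each of these 4 levels lay apart from the next in all 3 tumors. Nrg1 (0.113 ± 0.00821 CPM per kb), Btc (0.0741 ± 0.0660) and Egf (0.0377 ± 0.00701) closed the order, and the ranges of Nrg1 and Btc and those of Btc and Egf overlapped. Among the receptors, Erbb2 (5.09 ± 0.353 CPM per kb) and Egfr (4.25 ± 0.789) overlapped, and Erbb3 was lower (0.529 ± 0.0264).

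**Figure D1:**
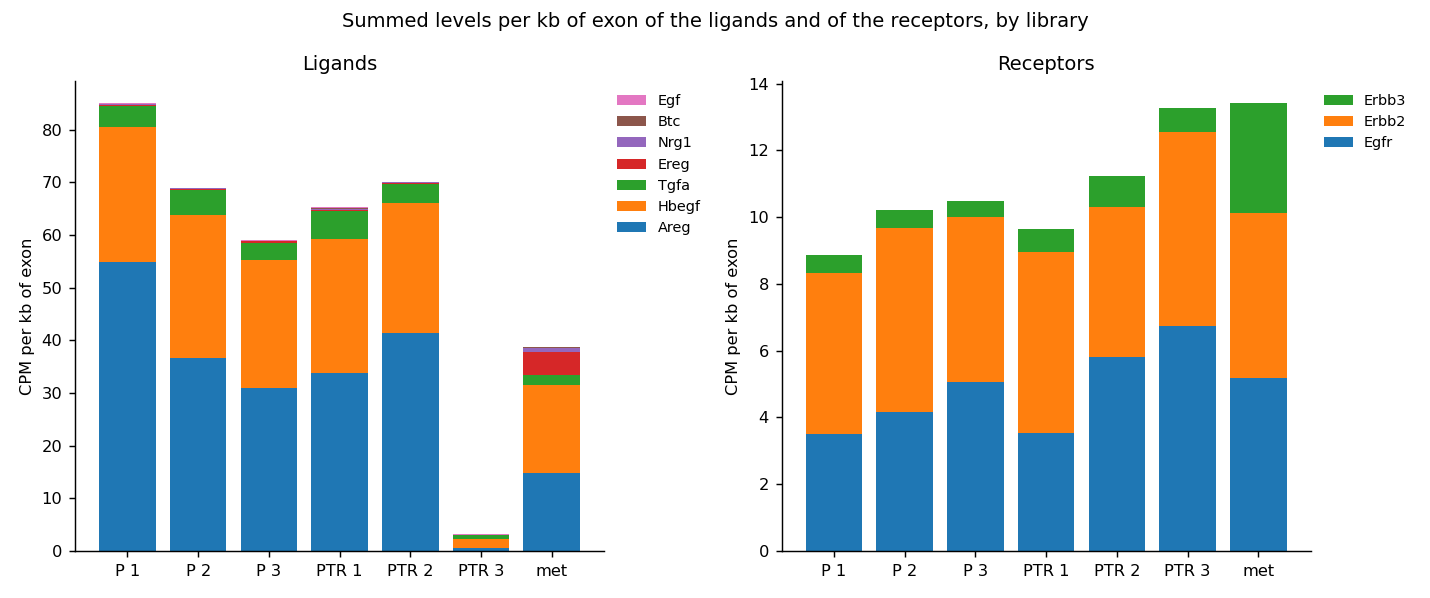
Stacked bars of CPM per kb of exon for the 7 ligand genes (left) and the 3 receptor genes (right) in each of the 7 libraries (P, EMT6-P; PTR, EMT6-PTR; met, metastasis), with 1 bar per library. Areg and Hbegf make up most of the ligand bar in every library, and the ligand bar of EMT6-PTR replicate 3 is 3.26 against 59.0 or more in the other tumors.

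Summed over the 7 ligands, the level was 85.0, 68.9 and 59.0 CPM per kb in EMT6-P, and for EMT6-PTR replicates 1, 2 and 3 it was 65.4, 70.1 and 3.26. EMT6-PTR replicates 1 and 2 lay within the EMT6-P range, and replicate 3 lay 18.1-fold below the lowest other tumor. For the receptors the sum was 8.88 to 10.5 CPM per kb in EMT6-P and 9.65, 11.2 and 13.3 in EMT6-PTR, with replicate 3 the highest tumor. Areg supplied 51.7% to 64.5% of the ligand sum in the other 5 tumors and 15.7% in EMT6-PTR replicate 3, where Hbegf supplied 54.7%. In bulk tissue, fewer cells that make a ligand and less of its RNA per cell cannot be told apart.

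Setting EMT6-PTR against EMT6-P asks what differs in tumors that regrew under PD-L1 inhibition. edgeR's quasi-likelihood test called 0 genes of 15645 (0%) at an adjusted p under 0.05, with 1786 genes at an unadjusted p under 0.05 (914 higher and 872 lower in EMT6-PTR), and DESeq2, run as an alternative, called 281 of 13694 (2.05%), 0 of them among the 6 family genes that it gave an adjusted p. Of the 10 family genes, 9 passed the filter on low counts and Btc did not. The fitted log2 fold change was at least 1, that is 2-fold higher in EMT6-PTR, for 1 of these 9 (Egf), against 6.27% of all genes tested, and at most -1 for 0 of 9, against 1.29%. With limma-voom, 3 of the 9 were at -1 or less, Areg at -2.33 (SE 1.45), Ereg at -1.46 (SE 0.83) and Hbegf at -1.34 (SE 1.01), and the same 3 were with a replicate block, at -1.59 (SE 1.27), -1.17 (SE 0.80) and -1.15 (SE 0.87). All 3 EMT6-PTR tumors lay above all 3 EMT6-P tumors for Egf and Erbb3 (2 of 9, against 9.52% of all genes) and below them for Ereg (1 of 9, against 11.8%). The median log2 fold change was 0.043 over the 9 genes and 0.025 over all genes tested.

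**Figure D2:**
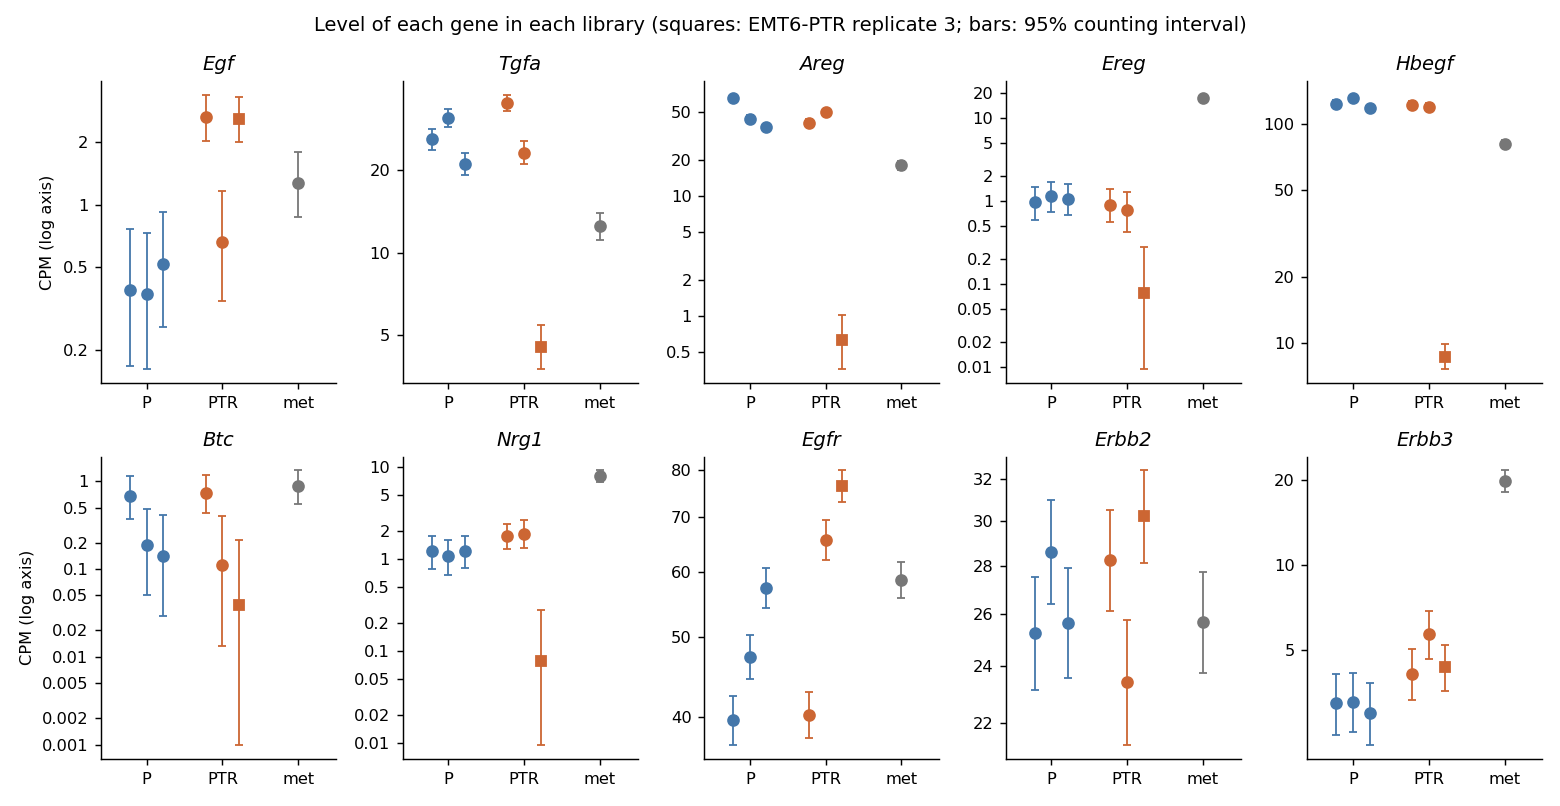
CPM of each gene in each library on a log axis, 1 panel per gene, with circles or squares for libraries (blue, EMT6-P; orange, EMT6-PTR; grey, metastasis) and bars for the 95% exact Poisson interval of the count. EMT6-PTR replicate 3 (squares) sits far below the other tumors for Tgfa, Areg, Ereg, Hbegf and Nrg1, and the metastasis above all tumors for Ereg, Nrg1 and Erbb3.

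Egf, the founding ligand of the family, had the highest fold change of the 9 genes. It stood at 0.388, 0.372 and 0.516 CPM in EMT6-P and at 2.65, 0.665 and 2.60 CPM in EMT6-PTR replicates 1, 2 and 3, with counts of 8, 8 and 11 against 61, 12 and 67. EMT6-PTR replicates 1 and 3 were far above every EMT6-P tumor, while replicate 2 was close to EMT6-P replicate 3 and its 95% counting interval (0.343 to 1.16 CPM) covered that tumor's value. The log2 fold change was 2.21 (SE 0.59) and ranged from 1.94 without EMT6-PTR replicate 1 to 2.61 without EMT6-PTR replicate 2. Egf passed the filter through the EMT6-PTR tumors, since only 1 of the 3 EMT6-P tumors reached its level of 0.476 CPM. Even at its highest, in EMT6-PTR replicate 1, Egf was at 0.235 CPM per kb, far below Areg and Hbegf in the same tumor.

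Egf is made in the salivary gland and in milk-secreting mammary epithelium among other tissues. The 6 salivary gland markers summed to 34.7 to 85.0 CPM in EMT6-P and 49.0 to 107 CPM in EMT6-PTR, highest in replicate 3. Most of this sum was 1 gene, Aqp5, at 34.1 to 83.8 CPM in EMT6-P and 47.8 to 78.5 CPM in EMT6-PTR. Aqp5 was not highest in replicate 3. The milk-secreting list summed to no more than 1.13 CPM in any tumor. The amylase Amy1 was the 1 salivary marker of the 6 above all other tumors in replicate 3, at 38.4 CPM against 0.997 or less, while Klk1, Smr3a, Bpifa2 and Prom2 were at 0 there. Skeletal muscle markers (6 of 6 above every EMT6-P tumor in EMT6-PTR replicate 1) summed to 3548 CPM there and to 6.06 CPM in EMT6-PTR replicate 3, the lowest sum of the 6 tumors. Egf was at 2.65 CPM in EMT6-PTR replicate 1 and 2.60 CPM in replicate 3. The part of salivary tissue or of muscle in the Egf level of any tumor was not tested. Me3 (a mitochondrial malic enzyme), Strip2 and Tcea3 (a transcription elongation factor) had the patterns most like that of Egf over the 7 libraries, at root-mean-square differences of 0.211, 0.303 and 0.394 in centred log2 CPM, against a median of 1.10 over all genes.

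Areg, which encodes amphiregulin, was the most abundant ligand per kb in EMT6-P and barely detected in EMT6-PTR replicate 3. It was at 66.6, 44.4 and 37.5 CPM in EMT6-P and 41.1, 50.2 and 0.622 CPM in EMT6-PTR, so that replicates 1 and 2 lay inside the EMT6-P range. In replicate 3 it had 16 counts, 60.4-fold below the lowest other tumor (95% counting interval 36.9 to 106). The log2 fold change between the groups was -0.69 (SE 1.13), and -0.12 (SE 0.26) without EMT6-PTR replicate 3, so the lower group mean rested on that tumor. Gm15725, Tnip3 (a binding partner of the NF-kappaB regulator A20) and Tagln (a smooth muscle actin-binding protein) were most like Areg, at differences of 0.565, 0.644 and 0.697 against a median of 2.13, and all 3 were lowest in the same tumor.

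Ereg (epiregulin), the neighbour of Areg, was low in all tumors, with 0.969, 1.16 and 1.08 CPM in EMT6-P and 0.911, 0.775 and 0.0777 CPM in EMT6-PTR. The EMT6-PTR tumors all lay below the EMT6-P tumors, yet replicates 1 and 2, with 21 and 14 counts, were within the counting intervals of the EMT6-P values, and only replicate 3 stood apart. That tumor held 2 counts, a ratio of 9.98 between the lowest other tumor and replicate 3 with a counting interval of 2.29 to 90.5. The log2 fold change was -0.88 (SE 0.74) with all tumors and -0.34 (SE 0.33) without EMT6-PTR replicate 3. Hbegf, the heparin-binding ligand of Egfr, kept within a narrow band outside that tumor, with 124, 131 and 118 CPM in EMT6-P and 123 and 119.8 CPM in EMT6-PTR replicates 1 and 2. In EMT6-PTR replicate 3 it was at 8.63 CPM, 13.7-fold below the lowest other tumor (interval 11.9 to 15.8), and the log2 fold change of -0.57 (SE 0.81) became -0.038 (SE 0.097) without it.

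The gene patterns most like those of these 2 ligands were also low in EMT6-PTR replicate 3. For Hbegf they were the pseudogene Ywhaq-ps1, whose reads may belong to its parent gene, the ephrin receptor Epha2 and Ddah1, which breaks down methylarginines, at differences of 0.202, 0.230 and 0.244 (median of all genes 1.37). Epha2 was at 159, 167 and 168 CPM in EMT6-P and at 158, 157 and 17.5 CPM in EMT6-PTR. For Ereg they were Kazn, Rtkn2 and the retinoic acid enzyme Aldh1a2, at differences of 0.332, 0.369 and 0.407 (median 1.88), each of which was highest in the metastasis, as Ereg was.

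Tgfa, the ligand that drives Egfr in many carcinomas, was at 25.9, 30.9 and 21.1 CPM in EMT6-P and 35.1, 23.1 and 4.55 CPM in EMT6-PTR. Replicate 1 was the highest tumor of all, replicate 2 lay inside the EMT6-P range, and replicate 3 was 4.64-fold below the lowest other tumor (interval 3.78 to 5.74). The log2 fold change was -0.31 (SE 0.64) and turned to 0.17 (SE 0.23) without EMT6-PTR replicate 3. Nrg1 (neuregulin), the ligand of Erbb3, showed opposite sides within EMT6-PTR, with 1.21, 1.07 and 1.22 CPM in EMT6-P and 1.78, 1.88 and 0.0777 CPM in EMT6-PTR. Replicates 1 and 2 were above all 3 EMT6-P tumors and replicate 3, with 2 counts, was below them (ratio of the lowest other tumor to it 13.8, interval 3.40 to 120.3). The log2 fold change was 0.083 (SE 0.90) with all tumors and 0.65 (SE 0.28) without EMT6-PTR replicate 3. Rnd1, the semaphorin receptor Plxna4 and the lipid transporter Mfsd2a were most like Nrg1, at differences of 0.327, 0.337 and 0.340 (median 1.59).

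Btc (betacellulin) was at the edge of detection, with counts of 14, 4 and 3 in EMT6-P and 17, 2 and 1 in EMT6-PTR. The highest tumors, EMT6-P replicate 1 (0.678 CPM) and EMT6-PTR replicate 1 (0.738 CPM), came from different groups, and a difference between the groups was not detectable at this depth. In EMT6-PTR replicate 3 its single count gave a ratio of 2.85 to the lowest other tumor, with an interval of 0.148 to 168 that includes 1.

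The receptors varied less than the ligands across the EMT6-PTR tumors. Standard deviations in log2 CPM were 0.190 to 0.484 for the 3 receptors and 1.07 to 3.47 for the 7 ligands. For the ligands other than Egf and Btc this rested largely on replicate 3. Hbegf was at 6.94, 6.91 and 3.12 in replicates 1, 2 and 3, and Egfr at 5.33, 6.04 and 6.26. In EMT6-P the standard deviation was 0.268 for Egfr. It was 0.0770 to 0.214 for Hbegf, Nrg1, Ereg and Egf and 0.275 to 0.937 for Tgfa, Areg and Btc. Egfr, the receptor of Egf, Tgfa and Areg, was at 39.6, 47.3 and 57.4 CPM in EMT6-P and 40.2, 65.7 and 76.3 CPM in EMT6-PTR. Replicates 2 and 3 were above all EMT6-P tumors and replicate 1 was next to the lowest of them, with a log2 fold change of 0.34 (SE 0.27) and of 0.14 (SE 0.25) without EMT6-PTR replicate 3. Erbb2, the partner receptor amplified in some human breast cancers, was at 25.2, 28.6 and 25.7 CPM in EMT6-P and 28.2, 23.4 and 30.2 CPM in EMT6-PTR, and the groups overlapped throughout (log2 fold change 0.043, SE 0.15). Erbb3, whose kinase is nearly inactive and which signals through a partner, was at 3.25, 3.30 and 3.00 CPM in EMT6-P and 4.12, 5.70 and 4.35 CPM in EMT6-PTR.

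All 3 EMT6-PTR tumors were above all 3 EMT6-P tumors for Erbb3, with replicate 2 the highest, and the log2 fold change of 0.57 (SE 0.26) stayed between 0.42 and 0.65 with any 1 tumor left out. Mapk8 (the stress kinase JNK1), Ankrd13c and Mpzl2 had the patterns most like that of Egfr, at differences of 0.116 to 0.120 (median of all genes 0.504). The RNA helicase Ddx5, Wdr59 and Usp6nl were most like Erbb2, at 0.0362 to 0.0509 (median 0.381). Akap2, the prostaglandin transporter Slco2a1 and the protease Ctsh were most like Erbb3, at 0.146 to 0.204 (median 0.948), and these 3 were highest in the metastasis. The likeness was taken over 7 libraries that share EMT6-PTR replicate 3 and the metastasis, and is a description.

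**Figure D3:**
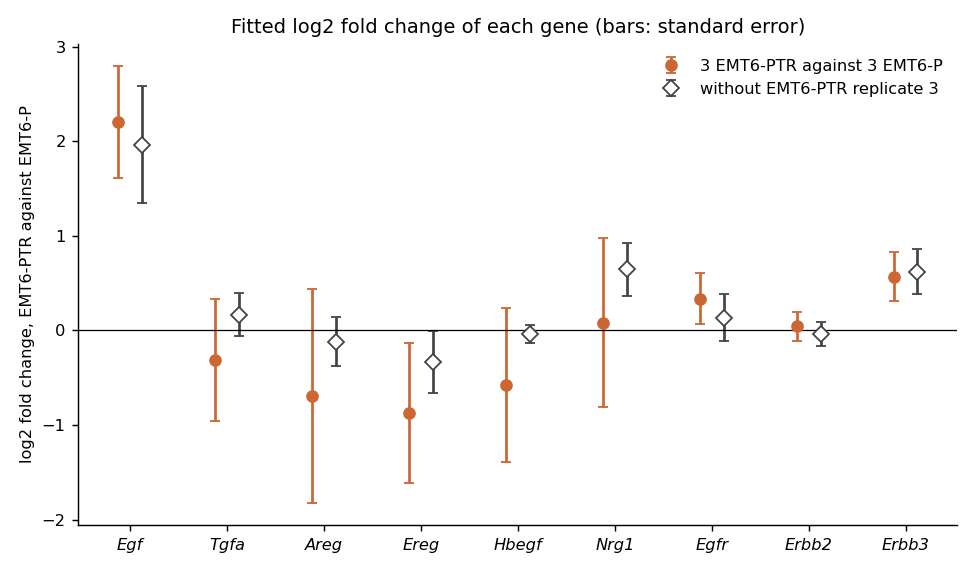
Fitted log2 fold change of EMT6-PTR against EMT6-P for the 9 genes that passed the filter (vertical axis, log2 units), with all 6 tumors (filled circles) and without EMT6-PTR replicate 3 (open diamonds), and bars for the standard error. Egf and Erbb3 stay above 0 in both, while Areg, Ereg and Hbegf move to between -0.34 and -0.04 and Tgfa and Nrg1 lie above 0 without that tumor.

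With EMT6-PTR replicate 3 left out, both other EMT6-PTR tumors lay above all EMT6-P tumors for Egf, Nrg1 and Erbb3 (3 of 9, against 18.2% of all genes) and below them for Ereg (1 of 9, against 21.8%). That tumor itself was at least 2-fold below every other tumor for 5 of the 9 genes, all of them ligands (Tgfa, Areg, Ereg, Hbegf and Nrg1), against 8.53% of all genes tested, and at least 2-fold above every other tumor for 0 of 9, against 5.91%. The median difference from the EMT6-P mean was -2.47 on the log2 scale over the 9 genes in that tumor and -0.03 over all genes. Some carcinoma markers were also lower there. The luminal list summed to 592 CPM against 2093 to 2335 CPM in the other tumors, a ratio of 3.53 to the lowest of them. Of its 8 markers, 3 were below all other tumors (Krt8, Krt18 and Cdh1) and 0 above all of them. Krt8 was at 1675, 1710.4 and 502 CPM and Krt18 at 390.0, 446 and 73.4 CPM in EMT6-PTR replicates 1, 2 and 3. Epcam and Krt19 were 1.84-fold and 1.59-fold above the lowest other tumor. Fibroblast markers summed to 11775 CPM there against 4934 to 7235 CPM in the other tumors, with 4 of 7 markers above all of them, led by Dcn at 3327 CPM, and 2 of 7 below all of them, Thy1 (a ratio of 9.45) and Pdpn (1.53). The basal epithelium list summed to 49.8 CPM there against 219 CPM or more. Of its 8 markers 2 were below all other tumors, among them Krt14, 9.95-fold below the lowest of them. Krt5 and Trp63 were 1.55-fold and 1.37-fold above the lowest other tumor. The mast cell and basophil list, with 5 of 7 markers below all other tumors, summed to 3.46 CPM against 8.04 CPM or more. The part of these shifts in the ligand levels was not tested.

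The rest of the pathway was described by lists of 76 genes, 71 of which passed the filter, and edgeR called 0 of them in either direction. At an unadjusted p under 0.05 in edgeR, 4 were higher and 3 lower, against 914 higher and 872 lower of all 15645 genes tested. Of the other family members, Epgn, Nrg2, Nrg3 and the receptor Erbb4 did not pass the filter, and Nrg4 was at 1.65, 1.63 and 1.31 CPM in EMT6-P and 1.30, 0.831 and 1.90 CPM in EMT6-PTR. Nrg3 and Erbb4 had 0 counts in every tumor, and a count of 0 allows up to 3 counts per library, that is 0.117 to 0.166 CPM, for counting error only.

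None of the 12 genes that shed or traffic the ligands was called. Lowest in unadjusted p were the rhomboid protease Rhbdl2 (log2 fold change -0.73, SE 0.28), the metalloprotease inhibitor Timp3 (0.78, SE 0.33) and the sheddase Adam15 (-0.21, SE 0.12), with adjusted p from 0.432 to 0.509 in edgeR. Rhbdl2 was at 14.3, 15.9 and 12.6 CPM in EMT6-P and 11.5, 8.47 and 5.83 CPM in EMT6-PTR, so the groups did not overlap. Adam17, the main sheddase of Areg and Tgfa, was at 72.0, 86.3 and 71.0 CPM in EMT6-P and 99.5, 102 and 40.5 CPM in EMT6-PTR, and replicate 3 was the lowest tumor for it as well. Adam10, another sheddase of the list, went the other way, at 265 CPM in replicate 3, 1.54-fold above the highest other tumor. Adam17 and Adam10 were chosen after their values were seen.

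The 24 signal transducers had 4 genes higher and 2 lower at an unadjusted p under 0.05 in edgeR, against 914 and 872 of all 15645 genes. Their median log2 fold change was 0.07. Sos2, an exchange factor that loads RAS with GTP, was at 25.7, 23.9 and 26.8 CPM in EMT6-P and 44.0, 36.3 and 39.4 CPM in EMT6-PTR, a log2 fold change of 0.65 (SE 0.13). Gab2, an adaptor that brings in PI3 kinase, was at 14, 14.7 and 12 CPM against 23.3, 18.8 and 21.3 CPM (0.64, SE 0.17). The kinase gene Braf was at 24.4, 30.1 and 30.1 CPM against 38.3, 41.2 and 44.8 CPM (0.56, SE 0.15). The EMT6-PTR tumors were above the EMT6-P tumors for each of these 3 genes, which were picked for the smallest unadjusted p of the list. Of the 24 genes, 5 had all EMT6-PTR tumors above all EMT6-P tumors, against 9.52% of all genes, and 2 below, against 11.8%. The 2 below were Hras (log2 fold change -0.46, SE 0.13) and Map2k2 (-0.35, SE 0.14), chosen after their values were seen. The adjusted p in edgeR was 0.421 for Sos2, Gab2, Braf and Hras and 0.433 for Map2k2. DESeq2 called Sos2 (adjusted p = 0.00435) and Gab2 (adjusted p = 0.0287), both higher in EMT6-PTR, and no other gene of the lists. That was 2 of the 70 pathway genes that it gave an adjusted p, against 2.05% of all genes. Pik3r1, the regulatory subunit of PI3 kinase, was the 1 gene of the list at least 2-fold apart in the fit, with 42.0, 56.6 and 350.2 CPM in EMT6-PTR against 30.6, 31.6 and 35.8 CPM in EMT6-P, and replicate 3 held most of that difference. Pik3r1 was chosen after its values were seen.

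Of the negative regulators 17 of 18 were tested, 0 were called, and the median log2 fold change was 0.0039. Lrig2, Cblb and Rnf41, which restrain or degrade ERBB receptors, had the smallest p-values, with log2 fold changes of 0.46 (SE 0.22), 0.55 (SE 0.27) and -0.35 (SE 0.24) and adjusted p from 0.468 to 0.571 in edgeR. Among 17 genes induced by ERK, the kinase at the end of the RAS branch, 0 were called either, and Ier2, Junb and Ccnd1 had the smallest p-values (adjusted p from 0.459 to 0.687 in edgeR).

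In EMT6-PTR replicate 3, 11 of these 17 ERK-induced genes were at least 2-fold below every other tumor, as the 5 ligands were, against the same 8.53% of all genes. The median of the list lay, in log2 CPM, at -0.00043 from the EMT6-P mean for EMT6-PTR replicate 1, at 0.24 for replicate 2 and at -1.68 for replicate 3. Ier2, an immediate-early gene, was at 73.0, 91.7 and 75.1 CPM in EMT6-P and 62.4, 59.4 and 26.9 CPM in EMT6-PTR. Junb, a subunit of AP-1, was at 287, 324 and 300.2 CPM against 299.9, 241 and 60.7 CPM, and Ccnd1, the cyclin of G1 phase, at 450.3, 350.4 and 331 CPM against 359.7, 364 and 112 CPM. Replicate 3 was the lowest tumor for each of these 3 genes, and for Ier2 the other EMT6-PTR tumors were below EMT6-P as well. Fosl1, another AP-1 subunit and the furthest below the other tumors of the list (a ratio of 7.10), was at 48.4, 49.4 and 38.5 CPM in EMT6-P and 34.8, 68.6 and 4.90 CPM in EMT6-PTR, and was chosen after its values were seen. The feedback phosphatases Dusp4, Dusp5 and Dusp6 and the ERK inhibitor Spry4, also picked after their values were seen, were the 4 negative regulators at least 2-fold below every other tumor there, by 3.57, 5.25, 3.08 and 2.78 times. The luminal markers that were lowest in that tumor (Krt8, Krt18 and Cdh1) moved with these genes too, and their part was not tested.

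**Figure D4:**
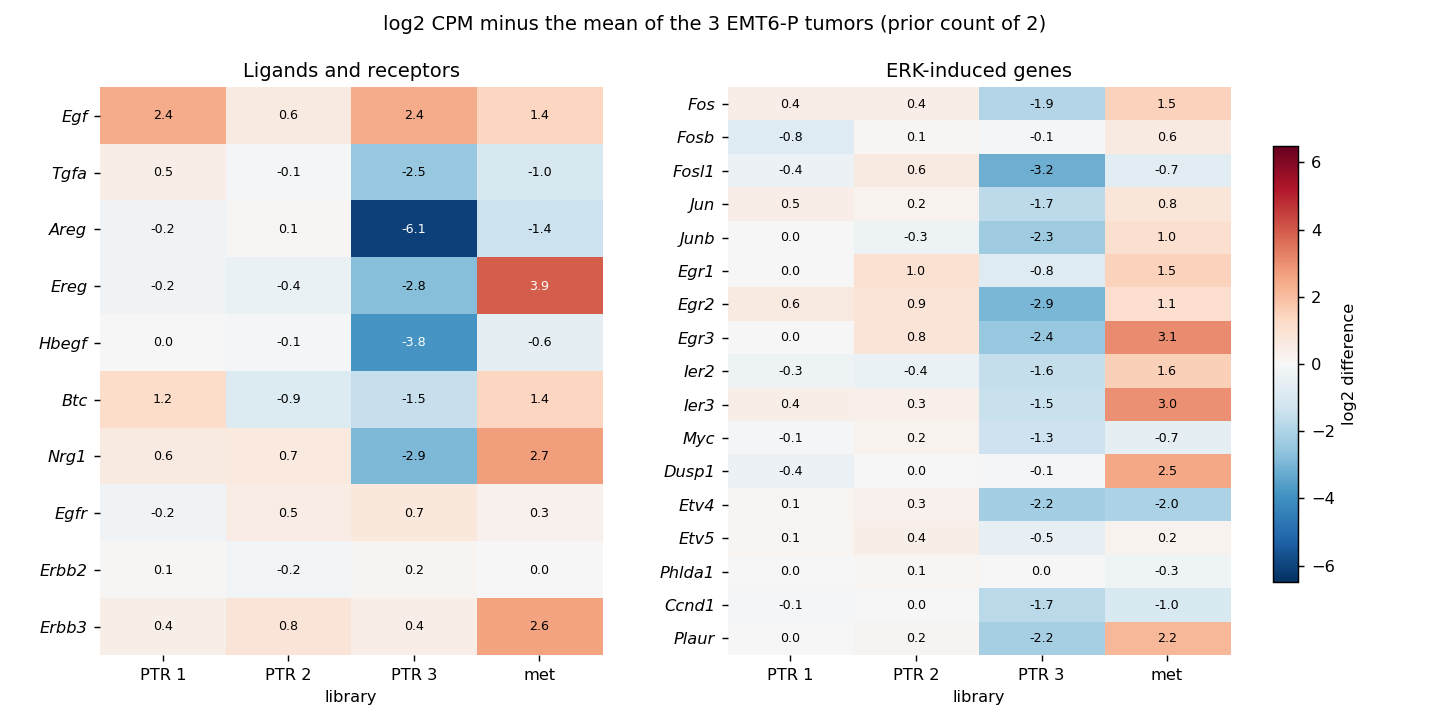
Heat map of log2 CPM minus the mean of the 3 EMT6-P tumors (prior count of 2) for the family genes (left) and the ERK-induced genes (right) in the 3 EMT6-PTR tumors and the metastasis (columns), with the value in each cell. The column of EMT6-PTR replicate 3 is negative for 6 of the 7 ligands and most ERK-induced genes and positive for Egf and the receptors.

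The metastasis differed from the EMT6-PTR tumors in both ligands and receptors, but it is a single library with no replicate. It was at least 2-fold above the highest EMT6-PTR tumor for 3 of the 9 genes (Ereg, Nrg1 and Erbb3), against 6.49% of all genes tested, and at least 2-fold below the lowest for 0 of 9, against 2.48%. Ereg was at 17.5 CPM (441 counts), 19.2-fold above the highest EMT6-PTR tumor. Nrg1 was at 8.03 CPM, 4.26-fold above it, and Erbb3 at 19.8 CPM, 3.48-fold above it. Ereg stood at 4.25 CPM per kb there, behind Hbegf (16.7) and Areg (14.8) but above Tgfa (1.92), whereas in EMT6-P it was below Tgfa.

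The other family genes lay within the range of the EMT6-PTR tumors, except Btc. Areg at 18, Hbegf at 81.0 and Tgfa at 12.5 CPM were below EMT6-PTR replicates 1 and 2 and above replicate 3. Egf was at 1.27, Egfr at 58.7 and Erbb2 at 25.7 CPM. Btc had 22 counts (0.874 CPM), slightly above EMT6-PTR replicate 1. Erbb3 reached 3.30 CPM per kb, nearer to Egfr (5.19) and Erbb2 (4.93) than in any tumor. Of the ERK-induced genes, 7 of 17 were at least 2-fold above the highest EMT6-PTR tumor, against the same 6.49% of all genes.

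Markers of other tissue moved with these values. All 6 lung markers were above every tumor in the metastasis, led by the club cell gene Scgb1a1 at 2989.8 CPM and the surfactant gene Sftpc at 2335 CPM, which were at 0 in all 3 EMT6-PTR tumors. All 6 neutrophil markers were also above every tumor, with a sum of 2843 CPM against at most 50.4 CPM. Endothelial markers summed to 822 CPM against at most 171 CPM, and T cell markers to 29.2 CPM against at most 16.8 CPM, with 5 of 6 above every tumor in each list. Of the luminal list 6 of 8 markers were above every tumor, among them Cdh1 at 138 and Epcam at 51.9 CPM, while Krt8, at 738 CPM, lay between EMT6-PTR replicate 3 and the other tumors. The part of these tissues and cell types in the levels of Ereg, Nrg1 and Erbb3 was not tested, and with 1 library the tissue of the metastasis and the metastasis itself cannot be told apart.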

How the data were processed

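RNA from 7 samples was sequenced as stranded polyadenylated libraries. Per the labels and the study's methods, the authors checked reads with FastQC 0.11.5, aligned them to GRCm38 (GENCODE M16) with STAR 2.6.0a and estimated counts per gene with RSEM 1.3.1; the deposited table holds these estimated counts, not normalized. All 7 columns were used. Counts were rounded. For 3 EMT6-PTR against 3 EMT6-P tumors, filterByExpr set the genes tested, calcNormFactors gave upper-quartile scaling, and edgeR 4.0.16 in R 4.3.3 ran the quasi-likelihood test (Benjamini-Hochberg over all genes, threshold 0.05). DESeq2 1.42.0 and limma-voom (limma 3.58.1) were alternatives, with TMM scaling, other filters, a replicate block, the metastasis as a group of its own and each tumor left out. The SE given with an edgeR log2 fold change is its absolute value divided by the square root of the F statistic of that test. The SEs of limma-voom come from its own fit. Log2 CPM used a prior count of 2. Symbols (53274 of 53465 identifiers), positions and exon lengths came from GENCODE M21 on GRCm38. Scripts were tested on simulated data. Intervals are exact at 95% and cover counting error only.

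The family genes and all lists were chosen with earlier results of these data known. Named were all 10 family genes, up to 3 pathway genes per list with the smallest unadjusted p, for 8 family genes the 3 most alike genes, and defining markers of lists that a family gene moved with; genes outside this rule are marked in the text.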

Additional observations from a re-analysis of the deposited data

How the results depend on the processing

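Under the alternatives, edgeR or limma-voom called 0 genes and 0 pathway genes with TMM scaling, no filter, at least 10 counts in every tumor, the metastasis as a group of its own and any 1 tumor left out. DESeq2 called 281 of 13694 genes (2.05%) and 2 of 70 pathway genes (Sos2 and Gab2). The number of family genes at least 2-fold apart was 1 in edgeR (Egf, higher), 4 with limma-voom (Egf higher, and Areg, Ereg and Hbegf lower), 0 when at least 10 counts were asked of every tumor, which removes Egf, Ereg and Nrg1, and 1 to 3 with 1 tumor left out (2 when EMT6-PTR replicate 1 was left out and 3 when replicate 2 was). With a replicate block it was the same 4 and 0 genes were called. Same-numbered tumors deviated together at correlations of 0.259, 0.253 and 0.038. EMT6-P replicates 1 and 2 correlated best with the same number in EMT6-PTR, and replicate 3 with number 1. As the match did not hold for number 3, the numbers were not taken as pairs and the replicate block was kept as an alternative. The number of family genes whose groups do not overlap was 3 with all tumors and 4 without EMT6-PTR replicate 3, an alternative chosen after seeing the data. All 114 fold changes of single family genes and all 50 values of the metastasis under alternatives stayed within 1 SD of the value given, an SD that EMT6-PTR replicate 3 widens: the log2 fold change of Areg ran from -2.33 (limma-voom) to -0.12 and that of Nrg1 from -0.88 (limma-voom) to 0.65, each upper end without that tumor. TMM scaling moved the median of all genes by 0.02. For Ereg, Nrg1 and Btc in EMT6-PTR replicate 3, with 1 or 2 counts, depth limits what can be said.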
